A study of Mus musculus with 2 samples.

Results

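The genes of the death receptor pathway and its caspases were examined in RAW264.7 cells, a transformed mouse macrophage line. The 8 members were the death receptor gene Fas, the adaptor gene Fadd, the regulator gene Cflar, the kinase gene Ripk1, and the caspase genes Casp2, Casp6, Casp8 and Casp9. They were chosen by name, and a probe set was taken for a member where the platform annotation gave it that single gene symbol. The rule found 11 probe sets for 7 of the 8 members, out of 12393 genes on the Affymetrix array. No probe set carried the single symbol Ripk1 in the annotation used, and that gene was not analysed here.

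Both groups were the same line kept in serum-supplemented DMEM, and both received IFN-gamma at 1000 U/ml for 4 h. One group received IFN-gamma alone. The other received adenosine at 300 uM together with IFN-gamma. RNA from 2 experiments was pooled for each treatment and hybridized to 1 array, so nothing below was checked against replicates and no p-value is given. No array of untreated cells was analysed here, so every value compares adenosine plus IFN-gamma with IFN-gamma alone. The findings concern 1 cell line, and fewer cells carrying a transcript cannot be told apart from less transcript per cell.

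Fas, a cell-surface receptor of the tumour necrosis factor receptor family, binds Fas ligand and recruits the adaptor FADD. FADD gathers procaspase-8, an initiator protease that activates itself when brought close to other copies and then cleaves executioner caspases or the BH3 protein BID. Cflar encodes c-FLIP, a relative of caspase-8 that lacks protease activity and regulates caspase-8 in this complex. Caspase-9 is the initiator of the mitochondrial route, caspase-2 is activated on a separate platform built by PIDD1, and caspase-6 is an executioner that cleaves lamin A. In macrophages, IFN-gamma is known as an inducer of several death pathway genes, and adenosine acts through cell-surface receptors that raise or lower cyclic AMP.

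Promoter windows are shown for Fas and Cflar, the members that were lower with adenosine, and for Casp8, which follows Cflar as the next protein-coding gene on chromosome 1. Each window runs from 250 bases before to 50 bases after a transcript start and is printed 5′ to 3′ along the gene from RefSeq tables of GRCm38.p6. Capitals mark matches to an IFN-gamma activated site (GAS, TTCNNNGAA) or an interferon-stimulated response element (ISRE, GAAANNGAAA), searched on both strands. The Fas window is chr19:34290409-34290708, plus strand. The Cflar window is chr1:58711241-58711540 and the Casp8 window chr1:58802252-58802551, both on the plus strand.
Fas: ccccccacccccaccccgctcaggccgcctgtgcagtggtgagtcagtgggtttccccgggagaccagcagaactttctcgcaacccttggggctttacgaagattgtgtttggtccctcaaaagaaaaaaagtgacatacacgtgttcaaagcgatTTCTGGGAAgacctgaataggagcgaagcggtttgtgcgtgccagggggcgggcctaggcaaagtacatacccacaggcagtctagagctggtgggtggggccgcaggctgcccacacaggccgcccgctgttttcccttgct
Cflar: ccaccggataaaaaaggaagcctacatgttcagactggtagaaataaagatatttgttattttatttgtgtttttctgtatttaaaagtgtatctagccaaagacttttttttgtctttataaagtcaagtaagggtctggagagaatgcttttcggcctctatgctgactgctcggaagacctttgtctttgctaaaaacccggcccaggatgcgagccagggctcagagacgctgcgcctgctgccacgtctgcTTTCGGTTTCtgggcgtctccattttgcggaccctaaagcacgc
Casp8: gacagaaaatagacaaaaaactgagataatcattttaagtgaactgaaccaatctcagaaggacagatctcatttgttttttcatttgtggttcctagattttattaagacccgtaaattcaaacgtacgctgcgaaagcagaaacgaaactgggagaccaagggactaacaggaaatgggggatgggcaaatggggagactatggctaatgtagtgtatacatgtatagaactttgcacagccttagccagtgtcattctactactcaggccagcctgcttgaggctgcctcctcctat

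The Fas window held 1 GAS match, beginning 93 bases before the transcript start. The Cflar window held 1 ISRE match, on the opposite strand and beginning 6 bases after the start. Neither pattern was found in the Casp8 window, nor in those of Fadd, Casp2, Casp6 or Casp9. The Casp8 window surrounds a transcript start inside the gene, whose RefSeq span begins at base 58795233. The bases around that beginning were not searched, so the missing match holds for the printed window alone. GAS letters occurred in 8.30% and ISRE letters in 3.44% of 32851 promoter windows of the same length. The full palindromic cAMP response element (TGACGTCA) and the 10-base NF-kB consensus were found in none of the 9 member windows, against 1.79% and 8.46% of all windows. The Fas and Cflar matches overlapped no other match, whereas 1 of the 2 Ripk1 windows held 2 GAS matches and 1 ISRE match that overlapped a GAS match. A match describes letters in these windows only.

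The adenosine array was dimmer as deposited, with a median gene probe set signal of 15.2 against 45.9. Signals of that array were therefore multiplied by 2.82 and are printed on this scale unless called deposited. The factor sets to 0 the median log2 ratio over probe sets at or above 24.5 as deposited on both arrays. A gene was counted as measured if its brighter array reached 44.0, the median of all gene probe set signals after scaling. A dimmer signal was raised to that floor before a ratio was taken. This cutoff was set by convention, not by a measured limit of detection. All 8 macrophage markers examined were measured, whereas none of 7 T and NK cell markers, 3 B cell markers or 4 fibroblast markers was, their highest signal being 13.8. The only error available comes from genes with several probe sets, whose log2 ratios scattered with an SD of 0.52 over 2375 genes, and it leaves out variation from culture to culture and array to array.

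With adenosine, Fas and Cflar were at least 2-fold lower by their brightest probe sets. By the same reading, the other 5 measured members lay within 2-fold of 0 on the centred scale. Fas differed most. The initiator and executioner caspase genes Casp8, Casp2 and Casp6 lay on the other side of 0, and Casp9 lay at it by its brightest probe set. Of the 7 members with a probe set all passed the floor, so 2 of 7 were at least 2-fold lower (28.6%), against 10.1% of the 6818 measured genes. None of 7 was at least 2-fold higher, against 4.52% of measured genes. The members were chosen with earlier results of these data known, so these shares are a description. The median log2 ratio of the 7 members was -0.02, beside -0.08 for all measured genes. By the median, therefore, the members did not lie lower than genes at large, and the higher share of lower genes rests on Fas and Cflar alone.

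**Figure D1:**
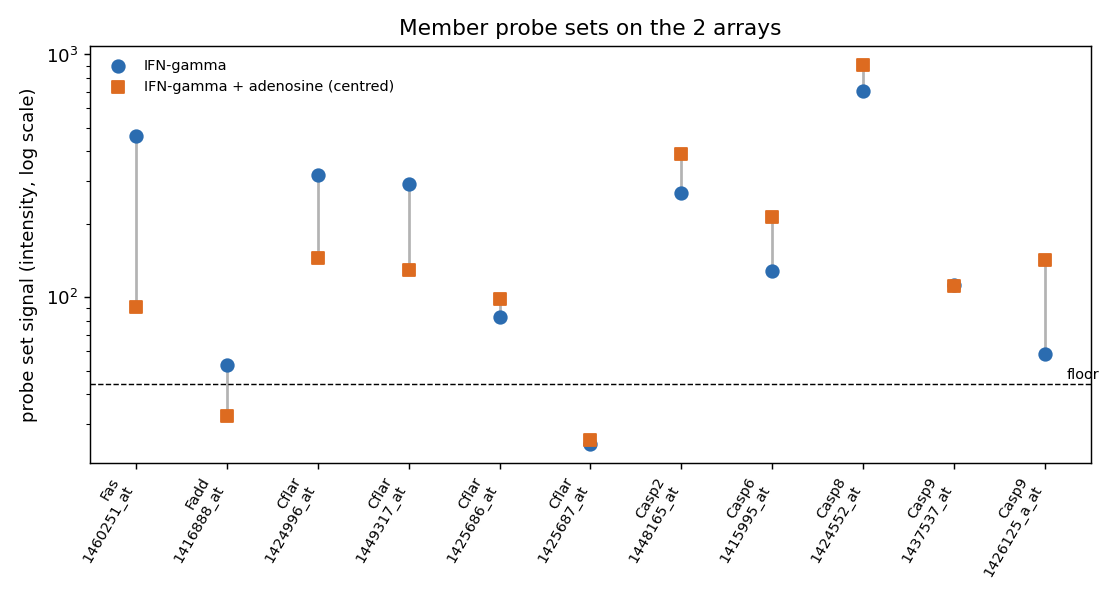
Signal of each member probe set on the IFN-gamma array (circles) and on the adenosine array after scaling (squares), on a logarithmic axis, with the floor of 44.0 dashed. Fas and 2 Cflar probe sets are lower with adenosine, those of Casp2, Casp6 and Casp8 are higher on this scale, and 1 Cflar probe set is below the floor on both arrays.

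Fas, the receptor at the head of the pathway, had a signal of 459.8 with IFN-gamma alone and 91.6 with adenosine. Its deposited adenosine signal was 32.5, so the gene was 14.1-fold lower before any scaling. The centred log2 ratio was -2.33. A lower log2 ratio was found in 0.836% of measured genes, which puts Fas at rank 58 of 6818 counted from the lowest. A single probe set represents Fas, so this ratio has no other probe set to set beside it.

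Fadd, the adaptor that joins the receptor to caspase-8, was close to the floor. Its signal was 52.5 with IFN-gamma and 32.4, below the floor, with adenosine. With the dimmer signal raised to the floor the log2 ratio was -0.25, and without a floor it was -0.70. The first of these is smaller than the scatter between probe sets and the latter is larger, so the size of a difference in Fadd could not be settled from this probe set.

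Cflar was read by 4 probe sets, and they did not give the same value. Probe set 1424996_at went from 320.4 to 146, a log2 ratio of -1.14. Probe set 1449317_at went from 292 to 129, a log2 ratio of -1.17. These brighter probe sets differed from each other by far less than the scatter, and both were at least 2-fold lower. The dimmer 1425686_at went from 83.0 to 98.9, a log2 ratio of 0.25. The last, 1425687_at, read 25 and 25.9 and so was not measured. Over the 3 measured probe sets the SD was 0.81. The 0.52 seen across genes used only the 2 brightest probe sets of a gene, so these SDs are not like measures. With the mean of the measured probe sets the log2 ratio of Cflar was -0.69, which no longer reached 2-fold. It was also short of 2-fold, at -0.96, with the floor at the 67th percentile of signals. The cause of the disagreement between probe sets was not tested.

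Casp8, the initiator protease of the death receptor complex, was at 704 with IFN-gamma and 906 with adenosine, a log2 ratio of 0.36. This is within the scatter between probe sets. In the deposited values the same probe set read 704 and 321. Casp8 was thus lower as deposited by 2.19-fold, less than the 2.82-fold shift removed by the centring.

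Casp2, the initiator of the PIDD1 platform, was at 269.6 and 390.4, a log2 ratio of 0.53. Casp6, the lamin-cleaving executioner, was at 128 and 214, a log2 ratio of 0.75. Casp6 was the highest of the members read from their brightest probe sets and was 1.68-fold higher, with 8.57% of measured genes higher still. Its ratio exceeded the scatter SD of 0.52, and that of Casp2 lay just above it. Casp2 and Casp6 each had 1 probe set.

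Casp9, the initiator of the mitochondrial route, had 2 probe sets that disagreed. The brighter, 1437537_at, was at 113 and 112, a log2 ratio of -0.02. The dimmer, 1426125_a_at, was at 58.5 and 143, a log2 ratio of 1.29, or 2.44-fold higher. The suffix of the latter marks a design that reads more than 1 transcript form of a gene. Their ratios differed by 1.30, more than the SD of 0.73 that the scatter gives for a difference between ratios. Casp9 therefore lay close to 0 by its brighter probe set and more than 2-fold higher by the other, and the mean of both was 0.64.

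**Figure D2:**
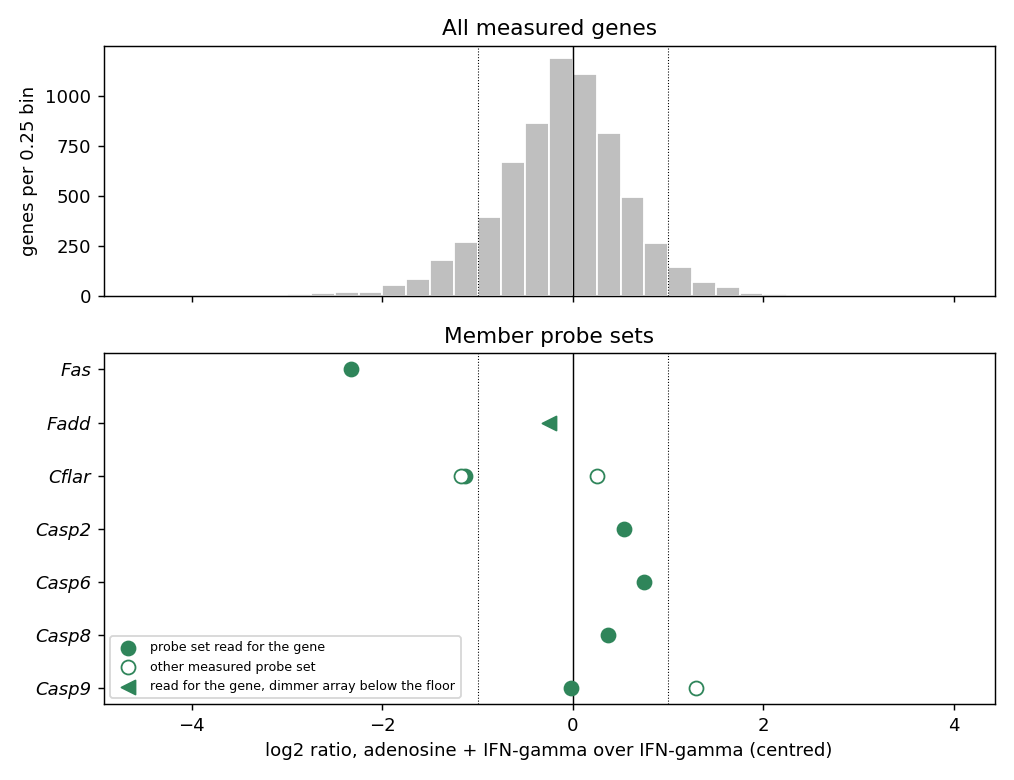
Top, number of measured genes in bins of 0.25 of the centred log2 ratio (with adenosine over without). Bottom, each measured member probe set on the same axis, filled where it was read for the gene and open otherwise, with dotted lines at 2-fold; Fas lies in the lower tail at -2.33, 2 Cflar probe sets lie just past -1, and the caspase probe sets lie between -0.02 and 1.29.

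Counted by probe set, 3 of the 10 measured were at least 2-fold lower, 1 for Fas and 2 for Cflar, and 1 was at least 2-fold higher, for Casp9. Among all measured probe sets with a single symbol, 9.51% were at least 2-fold lower and 5.88% were past 2-fold on the higher side. Probe sets of 1 gene share their target and are not replicates of the treatment.

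The distance between 2 members does not depend on a common scaling factor, as long as both signals stay above the floor. On the log2 scale the ratio of Fas minus that of Casp8 was -2.69, beside an SD of 0.73 that probe set scatter gives for such a difference. By its brightest probe set, the ratio of Cflar minus that of Casp8 was -1.50. The ratio of Cflar signal to Casp8 signal was thus 2.83-fold lower on the adenosine array, and that of Fas to Casp8 6.46-fold lower. The dimmer Cflar probe set 1425686_at had a log2 ratio of 0.25, close to the 0.36 of Casp8. No setting tried read Cflar from that probe set alone. Relative to Casp8, the log2 changes of Casp2, Casp6 and Casp9 were 0.17, 0.38 and -0.38, each within that SD of 0.73. For Fadd the difference was -0.62 with its adenosine signal raised to the floor and -1.06 without a floor, on either side of that SD in size. Over the scalings, floors and probe set rules tried, the change relative to Casp8 ran from -2.71 to -1.84 for Fas and from -1.51 to -1.05 for Cflar. The value nearest 0 for Fas came with the floor at the 67th percentile, where its adenosine signal had been raised to the floor. The value nearest 0 for Cflar came with the mean of its probe sets.

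The side of 0 on which the caspase genes lay was set by the scaling. In the values as deposited, all 7 members had lower signals on the adenosine array, with log2 ratios of -0.96 for Casp2, -0.75 for Casp6 and -1.13 for Casp8. Scaling to 18 probe sets of control transcripts spiked into both hybridizations left Casp2 at -0.43, Casp6 at -0.22 and Casp8 at -0.60. With trimmed mean, loess or quantile scaling, these 3 genes stayed above 0. Fas and Cflar were at least 2-fold lower under every one of the 6 scalings shown, from -3.82 to -2.22 for Fas and from -2.63 to -1.02 for Cflar. Under 2 of these scalings a large share of all measured genes was also at least 2-fold lower, 78.8% as deposited and 50.7% with spiked-in controls, so the call says little about these members there. With quantile scaling the share was 8.32%.

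**Figure D3:**
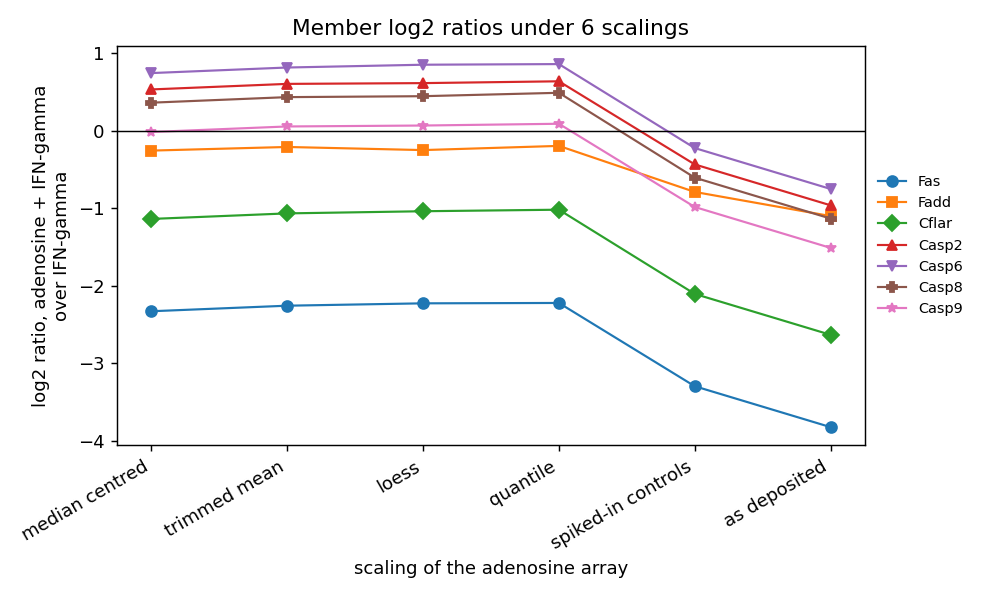
Log2 ratio of each measured member under 6 scalings of the adenosine array, with lines joining the values of 1 gene as a guide. Fas and Cflar lie below -1 under each of them, whereas Casp2, Casp6 and Casp8 lie above 0 with the first 4 scalings and below 0 with spiked-in controls or the deposited values.

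Genes that work beside the members were grouped by role into 6 lists with 46 entries. A single-symbol probe set was found for 39 of them and 33 were measured. Of these 33, 8 were at least 2-fold lower (24.2%) by their brightest probe sets, against the 10.1% of all measured genes. None was at least 2-fold higher, against 4.52%. The median log2 ratio of the 33 was -0.34, beside -0.08 for all measured genes. Both counts depend on the probe set read. Other probe sets of Bak1, Lmna and Dffb were past 2-fold higher, that of Htra2 was past 2-fold lower, and that of Xiap was not. The lists were chosen with earlier results of these data known, so the count is a description.

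Among death ligands and receptors, 3 of 7 were measured, 1 of them at least 2-fold lower. That was Tnf, the ligand of TNF receptor 1, with signals of 1491 and 383. Tnfrsf1a, the gene of TNF receptor 1, had signals of 1352 and 817, a log2 ratio of -0.73. Fasl, the gene of the Fas ligand, did not reach the floor on either array, with signals of 3 and 7.61. Nor did Tnfsf10, which encodes the ligand TRAIL, at 24.8 and 10.1. Tnfrsf10b, the mouse TRAIL receptor gene, read 8.40 without adenosine and 72.4 with it, a log2 ratio of 0.72 or more once the dimmer signal was raised to the floor. Its other probe set reached 44.5 with adenosine, barely over the floor. Fas was thus measured on both arrays and its ligand on neither.

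Among adaptors and necroptosis genes, all 9 matched genes were measured and 1 was at least 2-fold lower. This was Zbp1, a nucleic acid sensor that engages RIPK3, with signals of 1013 and 271 and a log2 ratio of -1.90. The other Zbp1 probe set gave -2.77 or lower, its adenosine signal having been raised to the floor. The kinase gene Ripk3 itself was at 584 and 515, a log2 ratio of -0.18, within the scatter. Pidd1, the platform for caspase-2, read 27.1, under the floor, without adenosine and 57.2, just over it, with adenosine.

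Of the other caspase genes, 2 of 4 matched were measured. Casp1, the inflammasome protease, was at 1387 and 499, a log2 ratio of -1.47. Casp4, the mouse caspase-11 gene, which senses cytosolic lipopolysaccharide, was at 1062 and 616, a log2 ratio of -0.79. Both of these inflammatory caspase genes lay below 0 on the centred scale. Casp8, Casp2 and Casp6 lay above it, Casp8 within the scatter. Casp9 lay at -0.02 by its brightest probe set and at 1.29 by the other. With spiked-in controls or the deposited values, Casp8, Casp2 and Casp6 were below 0 as well. Casp12 and Casp14 were below the floor on both arrays.

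In the mitochondrial arm, 1 of 6 measured genes was at least 2-fold lower. Bid, whose product links caspase-8 to mitochondria, went from 1293 to 322, a log2 ratio of -2.00, and its other probe set gave -1.24. Apaf1, the scaffold that activates caspase-9, was at 155 and 102, a log2 ratio of -0.61. Its other probe set gave -0.21, within the scatter. Cycs, the cytochrome c gene, was at -0.06 on the log2 scale. Bak1, a pore-forming BCL2 family gene, lay on the other side at 0.67, and its other probe set gave 1.62. Htra2, a mitochondrial protease gene, was read at -0.83, but its other probe set went from 426 to 92.5, a log2 ratio of -2.21, so the count of lower genes in this list depends on the probe set read.

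All 6 caspase inhibitor genes were measured, and 3 were at least 2-fold lower (50%), beside 10.1% of all measured genes. The list of other caspase genes had the same share, 1 of 2. Birc3, which encodes the cellular inhibitor of apoptosis cIAP2, went from 1272 to 212, a log2 ratio of -2.58. Xiap, a direct inhibitor of caspase-9 and of executioner caspases, went from 805 to 355, a log2 ratio of -1.18, but its other probe set gave -0.07. Naip2, better known as an inflammasome receptor for bacterial proteins, went from 115 to 53.0, a log2 ratio of -1.12 that ended close to the floor. Birc2, the neighbour and close relative of Birc3, had a log2 ratio of -0.29, within the scatter.

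Among caspase substrates and effectors, 1 of 7 measured genes was at least 2-fold lower. Gsdme, a pore-forming gasdermin, went from 978 to 447, a log2 ratio of -1.13. The other 6 had log2 ratios from -0.34 to 0.90 by their brightest probe sets. Dffb was at 0.67, and its other probe set gave 1.32 or more, its signal without adenosine having been raised to the floor. Lmna, whose product is the caspase-6 substrate lamin A, was at 4043 and 5060, a log2 ratio of 0.32, and its other probe set gave 1.54.

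**Figure D4:**
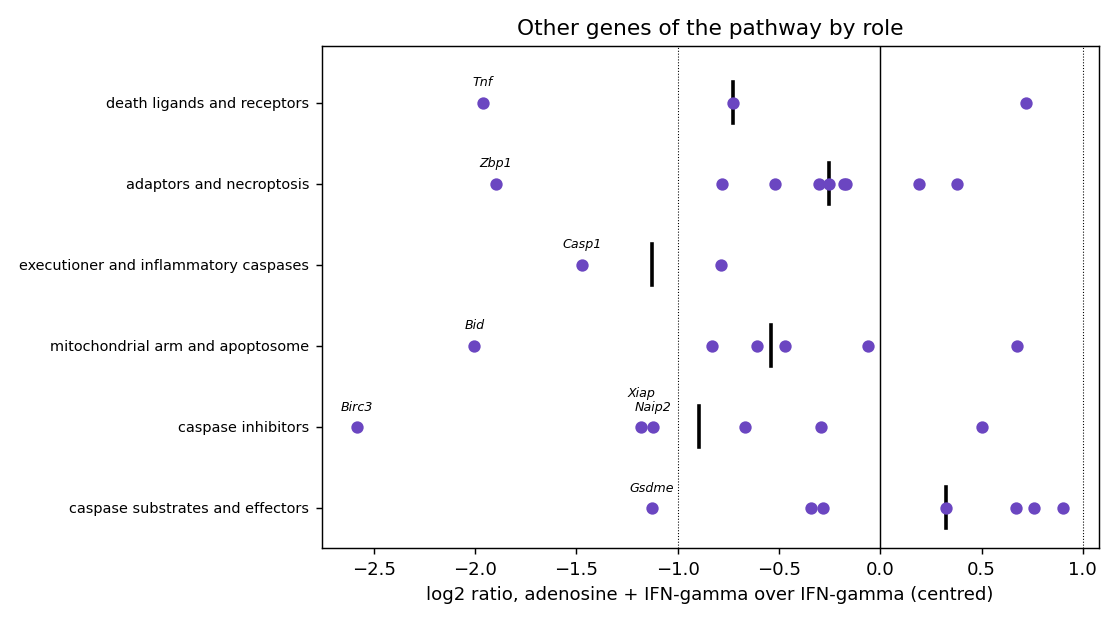
Centred log2 ratio (with adenosine over without) for the 33 other measured pathway genes, 1 point per gene and 1 line per role, with the list median as a black bar and dotted lines at 2-fold. The 8 genes at least 2-fold lower are named, and no gene passes 2-fold on the higher side by its brightest probe set.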

How the data were processed

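Messenger RNA was measured on 2 arrays, 1 per treatment. The authors deposited 1 intensity per probe set and array, on a linear scale. The submitters' processing notes name GCOS, the Affymetrix array software. How signals were computed and scaled is not given in the sources used here; detection calls were not part of the values used. Of 22690 probe sets, 64 were controls, 20380 had 1 gene symbol, 691 had several and 1555 had none in the platform annotation. Symbols were updated through Entrez identifiers with RefSeq tables of GRCm38.p6.

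Log2 ratios were centred on their median, -1.50, over probe sets at or above 24.5, the median deposited signal, on both arrays. A floor of 44.0 followed, and the probe set brightest on average stood for a gene. The design fixed no test, since each treatment has 1 array, and genes were counted at 2-fold. All members were named whatever their value. Every pathway gene at least 2-fold changed was named, and the other pathway genes named, below the floor or not, are examples chosen with their values in view. The number of arrays limits the precision. Members and lists were chosen with earlier results of these data known. The calculation was tested on simulated data with equal numbers of raised and lowered genes, chosen from those well above the floor with IFN-gamma alone. Changes in dim genes, or mostly in 1 direction, were not simulated. Alternatives were 6 scalings, 3 floors, 2 probe set rules and 2 thresholds. Python 3.11.15, numpy 2.4.6, pandas 2.3.3 and statsmodels 0.14.6 were used.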

Additional observations from a re-analysis of the deposited data

How the results depend on the processing

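No paired analysis was possible because there is only 1 array a treatment, which also leaves no replicate to drop. In the values as deposited, 5 members, 27 pathway genes and 5605 genes were at least 2-fold lower and 10 genes higher, the member median was -1.13, and Casp2, Casp6 and Casp8 turned to -0.96, -0.75 and -1.13 on the log2 scale. With spiked-in scaling, 23 pathway genes and 3538 genes were lower and 33 genes higher, the member median was -0.79, and the same 3 caspase genes turned to -0.43, -0.22 and -0.60. Of all 2-fold calls, 69.2% were lower as reported, 99.8% as deposited, 99.1% with spiked-in scaling and 58.8% with quantile scaling. Averaging the probe sets of a gene left 1 member lower and 1 pathway gene higher, and Casp9 turned to 0.64. The floor at the 67th percentile left 1 member lower (Fas, at -1.48), a change of Fas relative to Casp8 of -1.84, and 328 lower and 133 higher genes; fewer genes were measured, and dim signals raised to the higher floor give smaller ratios. Lowering the floor to the 33rd percentile gave 2 higher pathway genes and 599 higher genes. Quantile scaling and the pseudocount of 16 each gave 1 higher pathway gene. A 1.5-fold threshold gave 1 higher member (Casp6), 14 lower and 5 higher pathway genes, and 1489 lower and 879 higher genes. A 3-fold threshold gave 1 lower member (Fas), 4 lower pathway genes, and 202 lower and 67 higher genes. Repeating the centring until it no longer moved, an alternative chosen after seeing the data, changed no count of members.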
